A study of Homo sapiens with 6 samples.

Results

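HIF1A and EPAS1 encode the oxygen-regulated alpha subunits of the hypoxia-inducible factors, HIF-1 and HIF-2. They were followed together with 8 hypoxia-responsive genes that are not glycolytic enzymes: VEGFA, ADM, NDRG1, BNIP3, BNIP3L, EGLN1, EGLN3 and P4HA1. These 10 genes were taken by symbol from a table of 26485 genes, and each symbol stood on 1 row. The table holds RNA sequencing counts of HuCCT1, an established human cell line from cholangiocarcinoma, a cancer of the bile ducts. The 3 libraries labelled AQP1 KO (clone 22a, 22b and 22c) came from cells in which CRISPR/Cas9 was used to knock out AQP1, the gene of the water channel aquaporin-1. They were compared with 3 libraries labelled WT (clone 1a, 1b and 1c), from another CRISPR clone of the same line. All cells grew in DMEM-F12 with serum, L-glutamine and antibiotics, in plastic flasks under 5% CO2 at 37°C, and no library is labelled as hypoxic. Each genotype is 1 clone, so genotype and clone cannot be told apart. Nothing in the labels ties the letters to cultures of their own. The p-values therefore rest on the scatter among 3 libraries per clone, and that scatter may be technical.

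In oxygenated cells, the prolyl hydroxylases encoded by the EGLN genes use oxygen to mark the HIF alpha subunits, which the VHL ubiquitin ligase then sends to the proteasome. When oxygen is scarce the alpha subunits persist, pair with the ARNT subunit and bind hypoxia response elements near their targets. HIF activity is thus set largely at the level of protein, which these libraries did not measure. In many solid tumours, bile duct cancers among them, the pathway is known for its part in blood vessel growth and altered metabolism.

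Libraries held 36925338 to 40905209 counts in the knockout and 40536085 to 41724447 in wild type. Levels are given as CPM, that is, counts of a gene scaled to a library of 1000000 counts. Means are given ± SD (n = 3 libraries per clone), and values of single libraries in the order a, b, c. Fold changes are knockout over wild type from edgeR's quasi-likelihood test, fitted on 14405 genes, with a Benjamini-Hochberg adjusted p under 0.05 as the threshold. AQP1 itself had 10, 7 and 7 counts in the knockout, against 2, 8 and 10 in wild type. It was too low to be tested, and a transcript need not be lost from an edited gene, so the counts do not check the labels. Of 12 cholangiocyte markers, 11 were tested. Of these 11, 9 were lower in the knockout, among them CDH1 and EPCAM, where 37.2% of all tested genes were called lower. The 12 markers had a summed level of 2728 to 2798 CPM in the knockout and 6536 to 6580 CPM in wild type. SPP1 was the marker that rose, and it passed the filter on low counts only through the knockout libraries. The part of this shift of the markers in the results below was not tested. KRT7, which encodes keratin 7, was abundant in both clones, at 1613 ± 12.5 CPM in the knockout and 1751 ± 38.3 CPM in wild type. It was among the 9 called lower (log2 fold change -0.17, edgeR adjusted p = 2.22e-05). The other keratin genes of the list, KRT19, KRT18 and KRT8, fell further, with log2 fold changes of -3.07, -2.1 and -1.73.

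Most of the 10 genes were higher in the knockout clone. VEGFA, EGLN3 and EPAS1 rose by more than 2-fold, HIF1A, NDRG1, ADM, EGLN1 and BNIP3L rose by smaller amounts, P4HA1 fell, and BNIP3 was near the limit of detection and did not pass. In all, 8 of the 10 genes were called higher, where 37.1% of all tested genes were, and 1 was called lower, where 37.2% of all tested genes were. At least 2-fold higher were 3 of the 10, where 13.7% of all tested genes were. Taking the 10 together, the median log2 fold change was 0.49, against 0.01 for all tested genes. Of the 10, 9 passed the filter on low counts in all 6 libraries. BNIP3 passed it only through the knockout libraries, where it was higher, so its place among the tested genes is no support for a rise.

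**Figure D1:**
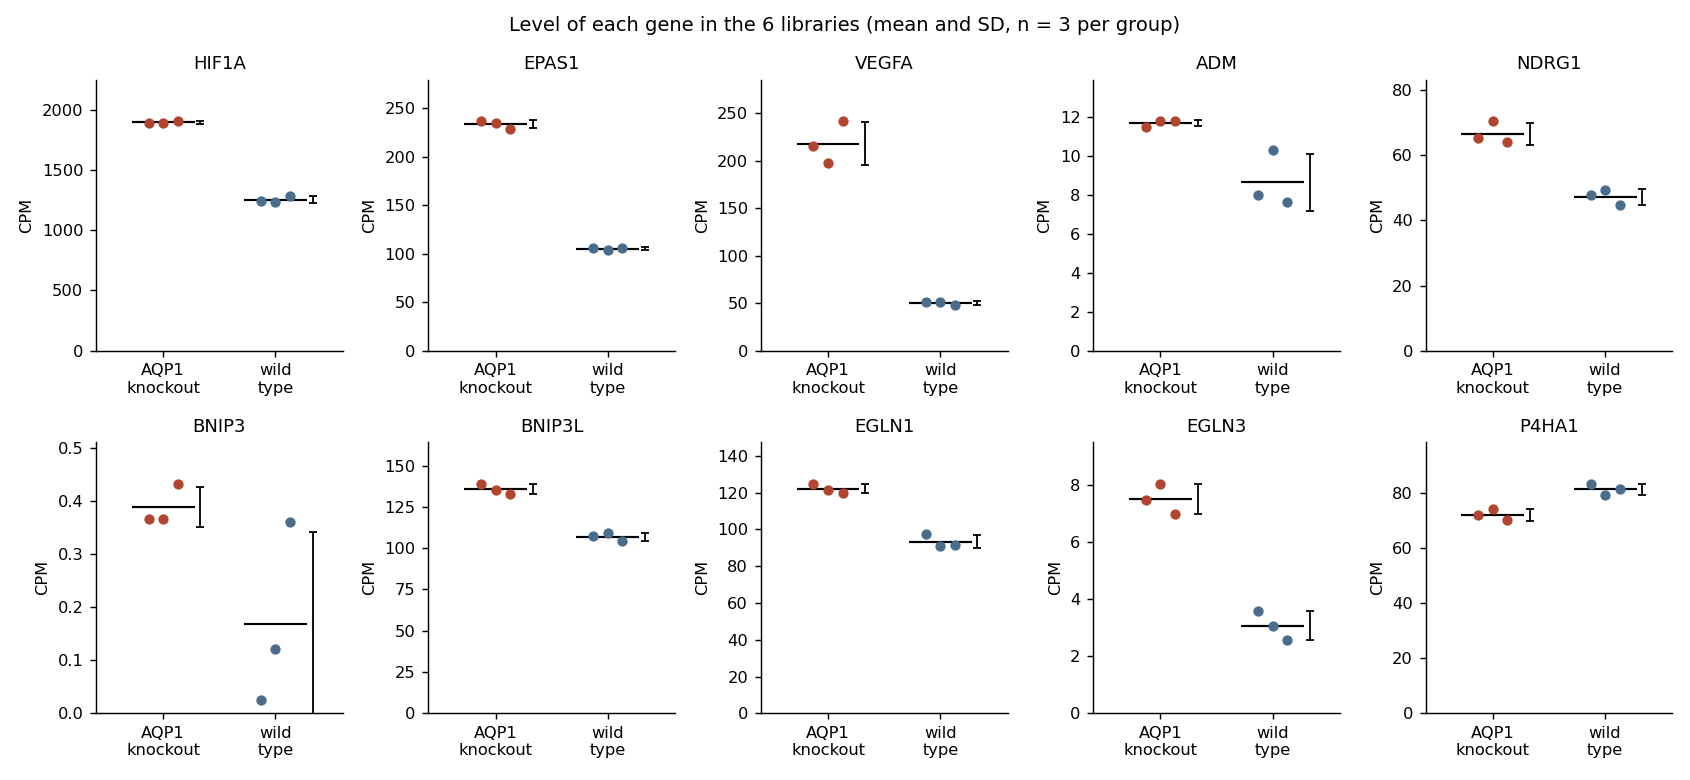
Level of each gene in CPM (linear axes from 0) in the 3 AQP1 knockout libraries (left, red) and the 3 wild-type libraries (right, blue), with the mean as a line and the SD as a bar. VEGFA stands at 198 to 242 CPM in the knockout and 47.7 to 51.6 CPM in wild type; the lower SD arm of BNIP3 in wild type runs below 0 and is cut off at the axis.

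The promoters of 4 genes are shown because these genes span the range of responses: EPAS1 and EGLN3 rose by more than 2-fold, P4HA1 fell and BNIP3 was barely detected. The sequences are RefSeq windows on GRCh38.p14, from 250 bases before to 50 bases after the start of the gene, written 5′ to 3′ on the strand of the gene. Capitals mark the core of the hypoxia response element, ACGTG or GCGTG, on either strand, where the other strand reads CACGT or CACGC. The EPAS1 window is chr2:46297157-46297456 on the plus strand, and those of the other genes are on the minus strand: BNIP3 at chr10:131981874-131982173, EGLN3 at chr14:33951025-33951324 and P4HA1 at chr10:73096817-73097116.
EPAS1: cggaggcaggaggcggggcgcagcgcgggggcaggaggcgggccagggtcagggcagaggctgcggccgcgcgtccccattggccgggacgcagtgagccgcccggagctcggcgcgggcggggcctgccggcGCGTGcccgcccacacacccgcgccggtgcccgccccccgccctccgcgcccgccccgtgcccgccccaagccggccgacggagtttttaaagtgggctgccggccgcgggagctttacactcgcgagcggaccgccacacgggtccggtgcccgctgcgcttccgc
EGLN3: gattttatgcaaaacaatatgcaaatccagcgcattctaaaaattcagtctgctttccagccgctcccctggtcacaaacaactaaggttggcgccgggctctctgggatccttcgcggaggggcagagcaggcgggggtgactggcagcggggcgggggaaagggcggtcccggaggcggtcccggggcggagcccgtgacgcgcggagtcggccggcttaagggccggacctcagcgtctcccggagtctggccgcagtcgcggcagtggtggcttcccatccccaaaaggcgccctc
P4HA1: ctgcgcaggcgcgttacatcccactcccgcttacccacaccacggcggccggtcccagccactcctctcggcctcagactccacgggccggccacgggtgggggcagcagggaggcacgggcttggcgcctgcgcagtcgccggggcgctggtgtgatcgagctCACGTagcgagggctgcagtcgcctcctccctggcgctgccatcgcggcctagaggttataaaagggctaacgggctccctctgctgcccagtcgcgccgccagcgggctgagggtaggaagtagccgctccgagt
BNIP3: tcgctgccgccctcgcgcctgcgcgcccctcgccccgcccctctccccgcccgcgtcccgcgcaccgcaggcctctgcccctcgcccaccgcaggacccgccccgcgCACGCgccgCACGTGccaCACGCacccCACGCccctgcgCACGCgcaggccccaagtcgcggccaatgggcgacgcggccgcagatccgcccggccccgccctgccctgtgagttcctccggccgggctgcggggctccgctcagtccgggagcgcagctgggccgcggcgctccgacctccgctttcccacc

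The EPAS1 window held 1 match, GCGTG on the gene's strand, and the P4HA1 window 1 match, ACGTG on the other strand. The EGLN3 window held none. The BNIP3 window held 6 matches in 5 stretches, because 2 matches on opposite strands overlap in CACGTG, the letters that also form an E-box. The windows of HIF1A (1 of its 2 windows), ADM and EGLN1 each held 1 match. Such letters are common: 48.4% of all 35116 windows of this length held at least 1 match, as did 62.1% of those of 11209 tested genes. In all, windows of 7 of the 10 genes were searched and 6 of the 7 genes had a match, whether the gene rose, fell or did not pass. VEGFA, NDRG1 and BNIP3L were not searched here. A match is a run of letters and does not show that a factor binds there.

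HIF1A, the HIF-1 alpha subunit, was by far the most abundant of the 10 and rose by 1.46-fold. It stood at 1891, 1887 and 1906 CPM in the knockout libraries, against 1239, 1236 and 1285 CPM in the wild-type libraries. Every knockout library lay above every wild-type library. The log2 fold change was 0.54 (SE 0.024, edgeR adjusted p = 1.09e-10). Whether strand was used in the counting is not stated, so reads of HIF1A and of its antisense genes cannot be told apart. The antisense rows HIF1A-AS1 and HIF1A-AS2 had 7 to 19 counts per knockout library and 4 to 16 per wild-type library, beside at least 50213 counts of HIF1A in every library.

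EPAS1, which encodes the HIF-2 alpha subunit, rose more than HIF1A. Its level was 236.9, 234.5 and 228.9 CPM in the knockout libraries, against 106.2, 104.02 and 105.98 CPM in the wild-type libraries. The replicates of a clone lay within a few CPM of each other and the clones were far apart. The log2 fold change was 1.09 (SE 0.026, edgeR adjusted p = 2.39e-13). The balance between the paralogs shifted with it: there were 12.3 ± 0.276 EPAS1 counts per 100 HIF1A counts in the knockout and 8.41 ± 0.162 in wild type (SD, n = 3 each). This ratio is taken within a library and does not depend on how libraries are scaled.

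EGLN1 and EGLN3 encode HIF prolyl hydroxylases, PHD2 and PHD3, and both genes are themselves induced by HIF, which closes a feedback loop. EGLN1 stood at 124.8, 121.5 and 119.9 CPM in the knockout libraries, against 97.4, 91.1 and 91.6 CPM in the wild-type libraries. That is a rise of 1.26-fold (log2 fold change 0.33, SE 0.033, edgeR adjusted p = 5.41e-07), and the groups did not overlap. EGLN3 was lower in level and rose more, with 7.47, 8.04 and 6.99 CPM in the knockout libraries, against 3.58, 3.05 and 2.56 CPM in the wild-type libraries. Its lowest knockout library was nearly 2-fold above its highest wild-type library, and the log2 fold change was 1.24 (SE 0.151, adjusted p = 4.85e-06 in the same test). EGLN3 counts per 100 EGLN1 counts were 6.15 ± 0.419 in the knockout and 3.27 ± 0.441 in wild type. EGLN2, the gene of the third HIF prolyl hydroxylase and not among the 10, had 7 counts over the knockout libraries and 1 over the wild-type libraries, a ratio of 7.29 with an exact 95% counting interval of 0.937 to 329. Of its exon bases in GENCODE v29, 30.6% are shared with the readthrough gene RAB4B-EGLN2 on the same strand, whose own row held 0 counts in all libraries. Reads that the authors' counting could not assign to 1 gene may be missing from such rows, so the level of EGLN2 is uncertain.

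VEGFA, which encodes the growth factor that drives the sprouting of blood vessels, had the largest rise of the 10. It reached 215.05, 197.6 and 241.8 CPM in the knockout libraries, against 51.6, 50.8 and 47.7 CPM in the wild-type libraries. The knockout libraries spread more widely for VEGFA, with a coefficient of variation of 10.2% in the knockout and 4.18% in wild type, but the gap between clones was many times that spread. The fold change was 4.2 (log2 2.07, SE 0.059, edgeR adjusted p = 1.18e-12). The related ligand genes moved less, VEGFB by 0.68 and VEGFC, a lymphatic vessel growth factor gene, by 0.25 on the log2 scale (adjusted p = 2.5e-08 and 0.000635). VEGFA counts per 100 VEGFB counts were 353.05 ± 33.8 in the knockout and 135.2 ± 4.12 in wild type, and per 100 VEGFC counts they were 316.98 ± 40.3 in the knockout and 90.1 ± 9.71 in wild type.

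ADM, which encodes the vessel-dilating peptide adrenomedullin, was less abundant and rose modestly. It had 11.5, 11.8 and 11.8 CPM in the knockout libraries, against 8.02, 10.3 and 7.62 CPM in the wild-type libraries. Wild-type library b lay close to the knockout libraries and the other two lay lower, so most of the spread lay in wild type (coefficient of variation 1.83% in the knockout and 16.5% in wild type). The log2 fold change was 0.39 (SE 0.113, adjusted p = 0.00729). Leaving out each library in turn gave 0.30 to 0.52, and the call was kept each time.

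NDRG1, a stress-responsive gene linked to cell differentiation and a long-used marker of hypoxia, rose by 1.36-fold. Its levels were 65.3, 70.5 and 64.0 CPM in the knockout libraries and 47.7, 49.2 and 44.6 CPM in the wild-type libraries, with no overlap (log2 fold change 0.44, SE 0.054, edgeR adjusted p = 5.27e-06). BNIP3L, also called NIX, encodes a receptor on mitochondria that recruits the machinery of mitophagy. It stood at 139, 135 and 133 CPM in the knockout libraries, against 107, 109 and 104 CPM in the wild-type libraries. The rise was the smallest of the 8 but larger than the spread between libraries (log2 fold change 0.29, SE 0.029, adjusted p = 6.37e-07 in the same test). Of the exon bases of BNIP3L, 7.66% are shared with PNMA2 on the opposite strand.

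BNIP3, the close relative of BNIP3L with the same role in mitophagy, was almost silent in both clones. It had 15, 15 and 16 counts in the knockout, against 1, 5 and 15 in wild type. Wild-type library c thus held as many counts as 2 of the knockout libraries, while the other wild-type libraries held few. The test did not pass (log2 fold change 1.13, SE 0.637, edgeR adjusted p = 0.125). The value rested on single libraries. With wild-type library c left out it was 2.30 and passed (adjusted p = 0.0133 in the same test), and with wild-type library a left out it was 0.63 (adjusted p = 0.351). Per kilobase of exon, BNIP3L stood at 31.5 ± 0.715 CPM in the knockout and 24.8 ± 0.555 CPM in wild type, whereas BNIP3 stood at 0.0731 ± 0.00718 CPM in the knockout and 0.0316 ± 0.0324 CPM in wild type.

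P4HA1, the catalytic alpha subunit of the prolyl 4-hydroxylase that stabilises the collagen triple helix, was the gene that fell. It had 72.1, 74.4 and 70.2 CPM in the knockout libraries, against 83.5, 79.5 and 81.5 CPM in the wild-type libraries. The difference was small, 0.853-fold, but no library of one clone overlapped the other (log2 fold change -0.23, SE 0.037, adjusted p = 8.03e-05). P4HA2, which encodes the alternative alpha subunit and is also a hypoxia target, rose to 55.6 ± 2.72 CPM in the knockout, against 28.3 ± 1.61 CPM in wild type (log2 fold change 0.92, adjusted p = 9.12e-09). The balance of the P4HA1 and P4HA2 transcripts therefore differed. There were 130.05 ± 2.59 P4HA1 counts per 100 P4HA2 counts in the knockout and 289.4 ± 23.7 in wild type. P4HB, the beta subunit of the same enzyme, fell more than P4HA1, to 914 ± 7.43 CPM in the knockout, against 1273 ± 6.05 CPM in wild type. P4HA1 counts per 100 P4HB counts were 7.9 ± 0.166 in the knockout and 6.4 ± 0.187 in wild type.

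**Figure D2:**
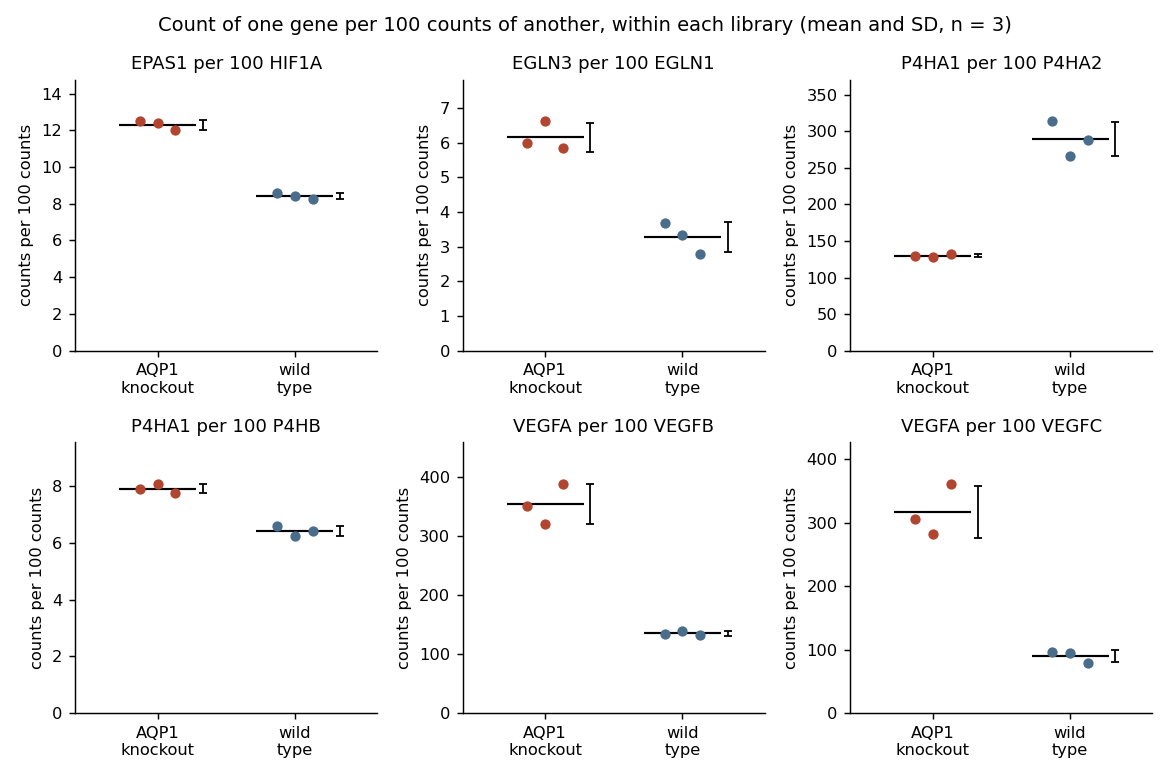
Counts of one gene per 100 counts of another within each library, for the 3 AQP1 knockout libraries (left, red) and the 3 wild-type libraries (right, blue), with mean and SD on linear axes from 0. EPAS1 per 100 HIF1A stands at 12.0 to 12.5 in the knockout and 8.25 to 8.57 in wild type, and in none of the 6 panels do the groups overlap.

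In total 6 such ratios were compared. In each, all 3 knockout libraries lay on 1 side of all 3 wild-type libraries, and the two-sided exact permutation test gave p = 0.1 for each, also after Benjamini-Hochberg adjustment. That is the smallest p that 3 against 3 libraries allow, so these tests could not reach 0.05.

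Across the 10 genes, every knockout library lay above every wild-type library in CPM for 9, where this held for 41.8% of all tested genes. The reverse held for P4HA1, as for 35.5% of all tested genes. BNIP3 is among the 9 by a margin of 0.367 to 0.36 CPM between libraries with the same count of 15. To set genes beside each other, CPM were divided by the length of all annotated exons of the gene (GENCODE v29, in kilobases). On this scale the knockout order was HIF1A (368 ± 1.93), EPAS1 (32.0 ± 0.564), BNIP3L, P4HA1 (23.3 ± 0.68), EGLN1 (16.8 ± 0.34), VEGFA (15.1 ± 1.54), NDRG1 (6.78 ± 0.347), ADM (4.31 ± 0.0787), EGLN3 (1.02 ± 0.0718) and BNIP3. In wild type, P4HA1 (26.4 ± 0.647) and BNIP3L came before EPAS1 (14.4 ± 0.163), and NDRG1 (4.8 ± 0.238) came before VEGFA (3.47 ± 0.145). Neighbours that differed by less than the sum of their SDs were EPAS1 and BNIP3L, and EGLN1 and VEGFA, in the knockout, and VEGFA and ADM (3.18 ± 0.524) in wild type. VEGFA has many alternative exons, 14431 bases in all, so its value per kilobase is low for its count.

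Because stretches of chromosomes can shift together between clones, each gene was set beside the tested genes whose starts lay within 5 Mb of its own. VEGFA (chromosome 6, 43770211 to 43786487, GRCh38) had 75 such neighbours with a median log2 fold change of -0.09. EPAS1 (chromosome 2, 46297407 to 46386697) had 34 with a median of 0.10, and HIF1A (chromosome 14, 61695513 to 61748258) had 54 with a median of 0.05. EGLN3, on the same chromosome as HIF1A (33924227 to 33951074), had 33 with a median of 0.03. For all 10 genes the neighbours' medians were between -0.11 and 0.11, nearer to 0 than the change of the gene itself in each case. Among the neighbours of NDRG1, only 11 in number, 54.5% were called higher and 18.2% lower. Around the other genes 26.1 to 42.4% were called higher and 26.1 to 47.6% lower, with the highest share of lower calls around ADM. Of all tested genes, 37.1% were called higher and 37.2% lower.

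**Figure D3:**
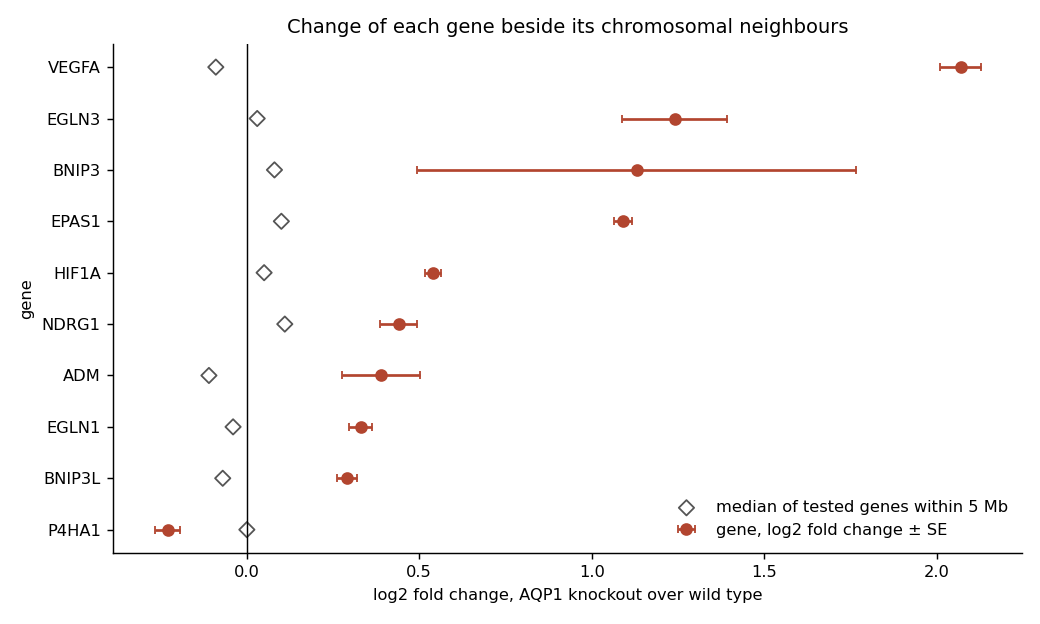
Log2 fold change of each gene with its SE (filled red), AQP1 knockout over wild type, beside the median log2 fold change of the tested genes within 5 Mb (open diamonds). VEGFA stands at 2.07 with neighbours at -0.09, and P4HA1, at -0.23 with neighbours at 0, is the gene left of 0.

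Partners and regulators of the HIF subunits were called in both directions, at shares near those of all tested genes (37.1% higher and 37.2% lower). Of 23 genes, 21 were tested, 8 rose, 10 fell and 3 did not pass, and the median log2 fold change was -0.04 (0.01 for all tested genes). Scaled by library totals alone, 10 rose and 8 fell, with a median of 0.02. ARNT, the common partner of HIF1A and EPAS1, stood at 69.2 ± 0.766 CPM in the knockout and 68.4 ± 3.52 CPM in wild type and did not pass (log2 fold change -0.04, adjusted p = 0.431). Its relative ARNT2 rose to 27.0 ± 0.549 CPM in the knockout, against 12.8 ± 0.59 CPM in wild type (log2 fold change 1.02, adjusted p = 2.76e-09). VHL, the substrate receptor of the ligase that removes HIF alpha subunits, rose by 0.29 on the log2 scale (adjusted p = 0.000284), with 53.2 ± 0.408 CPM in the knockout and 41.9 ± 2.3 CPM in wild type. HIF1AN, the asparaginyl hydroxylase that blocks the coactivator contact of HIF, did not pass (102 ± 1.67 CPM in the knockout and 95.8 ± 1.84 CPM in wild type, adjusted p = 0.298), but passed as higher when libraries were scaled by their totals alone. HIF3A had 0 counts in all 6 libraries.

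Among the other regulators, the largest rise beside ARNT2 was RACK1, a scaffold that promotes oxygen-independent loss of HIF1A, at 1119 ± 9.34 CPM in the knockout and 551 ± 11.7 CPM in wild type. The largest falls were in HSP90AA1, a chaperone that steadies HIF1A, and in CITED2, a HIF-induced protein that competes with HIF1A for its coactivators. HSP90AA1 stood at 3855 ± 58.4 CPM in the knockout and 5819 ± 197 CPM in wild type (log2 fold change -0.65, adjusted p = 8.96e-11). CITED2 stood at 68.1 ± 0.756 CPM in the knockout and 100.04 ± 0.208 CPM in wild type (log2 fold change -0.61, adjusted p = 3.2e-10).

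Other non-glycolytic hypoxia targets moved both ways, with more rises than falls. Of 63 genes, 59 were tested, 32 rose, 17 fell and 10 did not pass, with a median log2 fold change of 0.28. Of all tested genes, 37.1% were called higher and 37.2% lower. At least 2-fold were 13 rises and 2 falls. Of all 14405 tested genes, 1976 (13.7%) were called at least 2-fold higher and 1303 at least 2-fold lower. BHLHE41, a transcriptional repressor of the circadian system, rose to 44.3 ± 0.823 CPM in the knockout, against 2.18 ± 0.165 CPM in wild type (log2 fold change 4.29). RORA, a nuclear receptor gene, rose to 3.38 ± 0.135 CPM in the knockout, against 0.275 ± 0.121 CPM in wild type, and passed the filter only through the knockout libraries. The largest falls were in IGFBP3, which binds insulin-like growth factors (81.7 ± 2.72 CPM in the knockout and 206 ± 3.57 CPM in wild type), and in HILPDA, a lipid droplet gene (10.3 ± 0.266 CPM in the knockout and 22.5 ± 1.31 CPM in wild type). The list shares CITED2 and EGLN2 with the partners and regulators, P4HA2, PLOD1 and PLOD2 with the collagen genes and PDK1 with the glycolytic targets, so these genes are counted in both lists. For the glycolytic hypoxia targets, 17 of 21 rose and 2 fell (beside 37.1% and 37.2% of all tested genes), with a median of 0.33. Of these, SLC2A1 and HK2 fell by 1.19 and 1.11 on the log2 scale, and SLC2A3 and PFKL rose by 2.63 and 0.90.

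Genes that send or receive the signals of VEGF and adrenomedullin were mostly higher where they were detected. Of 15, 9 were tested, 8 rose and 1 fell, where 37.1% of all tested genes were called higher and 37.2% lower. The median log2 fold change of the list was 1.10, also with ACKR3 set at its bound. CALCRL, the adrenomedullin receptor gene, rose to 1.8 ± 0.489 CPM in the knockout, against 0.382 ± 0.212 CPM in wild type. ACKR3, a decoy receptor gene, had 54 counts over the knockout libraries and none over the wild-type libraries, at least 18.7-fold higher with the floor of 3 counts over the group. Both passed the filter only through the knockout libraries. RAMP1, which turns CALCRL into a receptor for a related peptide, fell to 3.74 ± 0.375 CPM in the knockout, against 11.6 ± 0.832 CPM in wild type. RAMP2, which gives CALCRL its affinity for adrenomedullin, had 11 counts over the knockout libraries and 0 over wild type, and RAMP3 had 0 in all. The vessel receptors FLT1 and KDR were too low to be tested. Of 12 endothelial markers, 2 rose, 1 fell and 6 were not tested, where 37.1% of all tested genes were called higher and 37.2% lower. The summed level of these markers was 9.66 to 10.0 CPM in the knockout and 9.25 to 10.6 CPM in wild type. PECAM1 did not pass, at 1.43 ± 0.511 CPM in the knockout and 0.918 ± 0.423 CPM in wild type. TIE1 and ROBO4 rose to 1.67 ± 0.363 and 4.41 ± 0.399 CPM in the knockout, against 0.243 ± 0.0513 and 0.672 ± 0.123 CPM in wild type. Of these, TIE1 passed the filter only through the knockout libraries. ESAM fell to 1.07 ± 0.296 CPM in the knockout, against 6.51 ± 0.588 CPM in wild type. The part of such markers in the VEGF results was not tested.

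Of 24 mitophagy genes around BNIP3L, 23 were tested, 11 rose, 7 fell and 5 did not pass, beside 37.1% higher and 37.2% lower among all tested genes. The median log2 fold change was 0.05, and 0.03 to 0.10 with 1 library left out. BCL2, an inhibitor of cell death, rose to 8.14 ± 0.332 CPM in the knockout, against 0.469 ± 0.106 CPM in wild type. Its relative BCL2L1 fell to 199 ± 4.11 CPM in the knockout, against 341 ± 10.0 CPM in wild type. RHEB, a small GTPase upstream of mTOR, fell by 0.79 on the log2 scale. Of 12 genes of collagen hydroxylation and folding, 11 were tested, 9 rose and 2 fell, beside 37.1% and 37.2% of all tested genes. The median log2 fold change of this list was 0.55. The rises were led by P3H3, at only 0.66 ± 0.329 CPM in the knockout and 0.0983 ± 0.129 CPM in wild type, and by P3H1, a prolyl 3-hydroxylase gene, at 39.3 ± 1.3 CPM in the knockout and 13.6 ± 1.13 CPM in wild type. The log2 fold change of P3H3 was 2.67, and 4.55 with wild-type library a left out, and the gene passed the filter only through the knockout libraries. The falls were in P4HB and in PLOD3, a lysyl hydroxylase gene, at 44.4 ± 2.46 CPM in the knockout and 75.0 ± 3.4 CPM in wild type.

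**Figure D4:**
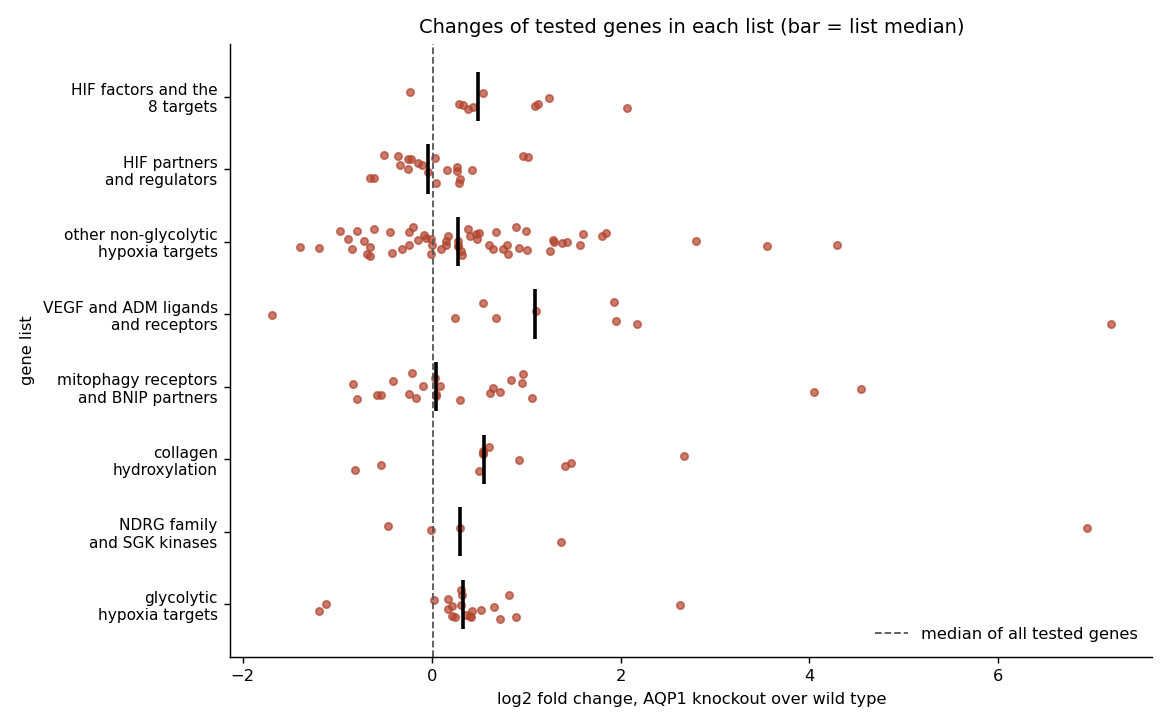
Log2 fold change of each tested gene, AQP1 knockout over wild type, in 8 gene lists (dots, spread vertically for view), with the list median (bar) and the median of all tested genes (dashed line at 0.01). Medians run from -0.04 for HIF partners and regulators to 1.10 for VEGF and adrenomedullin signalling; the points near 7 are ACKR3 and NDRG2, whose fitted values depend on the prior count because wild type had 0 and 3 counts.

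The relatives of NDRG1 differed among themselves. Of NDRG2, NDRG3, NDRG4 and the 3 SGK kinase genes, 5 were tested. Of these, 2 rose, 1 fell and 2 did not pass, beside 37.1% higher and 37.2% lower among all tested genes. The median log2 fold change of 0.30 rested on single libraries: it was 0.59 and 0.09 with knockout library a or b left out, and 0.47 and 0.02 with wild-type library a or b left out. NDRG2 had 412 counts over the knockout libraries and 3 over wild type, a ratio of 143 (exact 95% counting interval 48.6 to 696), and passed the filter only through the knockout libraries. NDRG4 rose to 21.2 ± 1.05 CPM in the knockout, against 7.9 ± 1.14 CPM in wild type. NDRG3 did not pass, and SGK1, a kinase that phosphorylates NDRG1, fell to 13.8 ± 1.04 CPM in the knockout, against 18.3 ± 2.02 CPM in wild type.

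Markers of stromal and immune cells were mostly near 0 in both clones, and their part in the results above was not tested. Of 10 fibroblast markers, 6 were tested and 4 rose, where 37.1% of all tested genes were called higher. The summed level of these markers was 35.9 to 38.9 CPM in the knockout and 15.9 to 18.5 CPM in wild type. PDGFRA stood at 6.66 ± 1.05 CPM in the knockout and 0.712 ± 0.08 CPM in wild type. DCN had 32, 36 and 39 counts in the knockout, against 0, 0 and 4 in wild type. Its log2 fold change was 4.63, and 8.16 with wild-type library c left out, and DCN passed the filter only through the knockout libraries. LUM, the largest part of the sum in the knockout, rose to 17.4 ± 0.675 CPM there, against 5.33 ± 0.616 CPM in wild type. COL1A1 did not pass, at 9.07 ± 2.1 CPM in the knockout and 9.89 ± 0.589 CPM in wild type, and COL1A2 and COL3A1 held at most 0.098 CPM in any library. Of 10 immune markers, 5 were tested, 3 rose and 1 (CSF1R) fell, beside 37.1% and 37.2% of all tested genes. The summed level of the immune markers was 206 to 213 CPM in the knockout and 110 to 116 CPM in wild type. Of the rises, that of ITGAM was lost when any library other than wild-type library a was left out. ITGAM also passed the filter only through the knockout libraries. CD68, a lysosomal protein gene that epithelial cells also express, made up nearly all of that sum, and PTPRC, the pan-leukocyte marker, had 0 counts in all 6 libraries.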

How the data were processed

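The authors deposited 1 table of raw counts per gene symbol, whole numbers with no normalization. The tools named in the submitters' processing notes are HISAT2, Trimmomatic 0.33, FastQC and edgeR, with build hg38. How reads were counted, with which strand setting and annotation, is not given in the sources used here. No row was left out of library totals, and 28 rows with names in the form of dates (0.243 to 0.269% of counts) are not named. The 10 genes and the lists were chosen with earlier results of these data known, so patterns already seen in them are not independent support.

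From these counts, edgeR 4.0.16 in R 4.3.3 was run with filterByExpr (minimum count 10), TMM factors (0.98 to 1.024) and a quasi-likelihood F test over all 6 libraries with no covariate, and p-values were adjusted over all 14405 tested genes. The SE of a log2 fold change is its size divided by the square root of F. The step was tested on simulated counts. No pair of replicates agreed within sampling noise (chi-square per degree of freedom 4.18 to 7.6). Symbols were matched to RefSeq (GRCh38.p14): 23752 rows by current symbol and 1503 by an older one. Promoter windows are from RefSeq and exon lengths from GENCODE v29. Counting intervals are exact and hold for counting error alone, because copies made by PCR are not separate molecules. All 10 genes are named, as are 6 fixed HIF regulators and the 2 largest rises and falls that passed in each list, except 1 that is not reported here; other names were chosen after their values were seen. A planned comparison of protein sequences was not made. Alternatives were DESeq2 1.42.0, limma-voom (limma 3.58.1), scaling by RLE or by totals alone, a 1 CPM minimum or no filter, a replicate block, each library left out, an adjusted p of 0.01 and glmTreat against 1.5-fold.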

Additional observations from a re-analysis of the deposited data

How the results depend on the processing

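Of the 14405 tested genes, 10711 were called, and 10506 to 10802 were with DESeq2 or limma-voom and with RLE scaling or totals alone. With no filter 11188 of 19476 genes were called, and with the 1 CPM minimum 10009 of 12714. Leaving out 1 library gave 10326 to 10607 calls, and an adjusted p of 0.01 gave 9550. The number of the 10 genes called higher was 8 under all of these except limma-voom and the fit without wild-type library c, where BNIP3 passed and it was 9; the number called lower was 1 throughout. Against a 1.5-fold change (edgeR's glmTreat), 4354 genes were called, of the 10 only VEGFA, EGLN3 and EPAS1 were called higher (3), and 0 were called lower, also at an unadjusted p under 0.05, because that test asks for a larger change. The adjusted p of BNIP3 was 0.0133 to 0.374 over its 14 alternatives. It was not tested under the 1 CPM minimum. No gene of the 10 reversed. Scaling by library totals alone moved the median of all genes to 0.059 and P4HA1 to -0.17. The median of the VEGF and adrenomedullin list was 1.95 with no filter and 0.91 with the 1 CPM minimum, since the genes tested differ. With the letters as a replicate block, 10599 genes were called and the calls of the 10 genes were the same. Deviations of same-lettered libraries correlated at 0.058, -0.019 and 0.008. Library a correlated best with its own letter, and libraries b and c did not. Correlations this weak cannot decide whether the letters pair the libraries. Depth limits BNIP3, which had at most 16 counts in a library.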

Other observations

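Some further targets, chosen after their values were seen, also differed. The stanniocalcin genes, which encode secreted glycoproteins, stood at 45.7 ± 1.22 CPM in the knockout and 12.2 ± 0.315 CPM in wild type for STC1 (log2 fold change 1.85, edgeR adjusted p = 3.04e-12), and at 4.0 ± 0.895 CPM in the knockout and 0.549 ± 0.202 CPM in wild type for STC2. CA9, a carbonic anhydrase gene widely used as a marker of hypoxia, stood at 3.79 ± 0.296 CPM in the knockout and 1.48 ± 0.178 CPM in wild type (log2 fold change 1.30, adjusted p = 3.09e-05). HMOX1, the heme oxygenase gene, stood at 25.7 ± 2.24 CPM in the knockout and 8.16 ± 0.531 CPM in wild type. In the other direction, DDIT4, an inhibitor of mTOR signalling, stood at 48.7 ± 2.06 CPM in the knockout and 73.5 ± 5.21 CPM in wild type. TFRC, the transferrin receptor gene, stood at 459 ± 5.08 CPM in the knockout and 817 ± 13.8 CPM in wild type (log2 fold change -0.89, adjusted p = 9.85e-13). The hypoxia markers ANKRD37 and FAM162A did not pass (adjusted p = 0.977 and 0.909). MIR210HG, the host transcript of a hypoxia-induced microRNA, stood at 2.28 ± 0.228 CPM in the knockout and 1.67 ± 0.078 CPM in wild type and did not pass either (adjusted p = 0.097).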
